A study of Mus musculus with 8 samples.

Results

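The Bex (brain-expressed X-linked) and Tceal (transcription elongation factor A-like) genes encode related small proteins. Their rows were taken by gene symbol from the table of normalised counts and joined by Ensembl identifier to the raw count table. Of 7 listed genes, Bex1, Bex2, Bex3, Bex4, Tceal8 and Tceal9 were found among the 25485 genes of the normalised table, and Bex6 was found by its identifier only in the count table of 53801 genes. The genes were chosen by family and by the measured levels of Bex1 and Bex2, which were known from these libraries to be higher in the Mll1-deficient cells, so the difference between genotypes is given for the members as a description, with no test. Messenger RNA was sequenced from Lgr5-GFP+ intestinal stem cells of 8 mice, 1 library per mouse. Cells of 4 mice were labelled β-catGOF; Mll1-/- (J_7075, J_7096, J_7135 and J_7136), and cells of 4 mice were labelled β-catGOF; Mll1+/- (J_7079, J_7100, J_7134 and J_7139). All 8 mice carried the β-catenin gain-of-function allele, in which loss of exon 3 stabilises β-catenin, and the floxed alleles were recombined by the CreERT2 of the Lgr5-EGFP-IRES-CreERT2 knock-in, which is expressed in Lgr5+ cells. Tamoxifen (50 mg/kg) was injected on 3 consecutive days at an age of 4 to 6 weeks, and cells were sorted 10 days after induction. No library without the β-catenin mutation was included, and the heterozygous mice served as controls.

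Bex and Tceal proteins are small and mostly encoded by a cluster of genes on the X chromosome that is specific to placental mammals. Bex proteins act as adaptors: Bex1 and Bex3, the latter also known as NADE, bind the intracellular part of the p75 neurotrophin receptor, and the family is best known from neurons and endocrine cells. Tceal proteins resemble part of TFIIS (transcription elongation factor A), which helps arrested RNA polymerase II to resume elongation, and Tceal9 was formerly called Wbp5. Mll1, encoded by Kmt2a, is a histone methyltransferase that places methyl groups on lysine 4 of histone H3.

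The 6 X-linked members lay within 205 kb of chromosome X (mm10, positions 136066564 to 136271978), in the order Bex2, Bex4, Tceal8, Bex1, Tceal9 and Bex3. Bex2 (ENSMUSG00000042750), Tceal8 (ENSMUSG00000051579) and Bex1 (ENSMUSG00000050071) are annotated on the minus strand, and Bex4 (ENSMUSG00000047844), Tceal9 (ENSMUSG00000042712) and Bex3 (ENSMUSG00000046432) on the plus strand. Bex6 (ENSMUSG00000075269) is a gene with 1 exon on chromosome 16 (positions 32186186 to 32186949, plus strand). RefSeq promoter windows (GRCm38.p6, 250 bases before and 50 bases after the annotated first base) were found for all 7 members. They are shown for Bex1, Bex4, Bex2 and Bex3. These 4 genes form 2 pairs whose windows share a long, nearly identical stretch, while their levels and differences between genotypes were unlike. Each is given on the strand of its gene, and capitals mark TGACG, the short form of the cAMP response element, and CACGTG, an E-box, wherever these letters occur on that strand.

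Bex1: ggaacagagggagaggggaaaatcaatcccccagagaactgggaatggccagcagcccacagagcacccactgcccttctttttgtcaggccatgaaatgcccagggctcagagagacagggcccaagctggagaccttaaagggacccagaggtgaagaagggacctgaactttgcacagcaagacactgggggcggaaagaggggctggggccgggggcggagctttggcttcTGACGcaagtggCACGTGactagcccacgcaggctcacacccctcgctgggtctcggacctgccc
Bex4: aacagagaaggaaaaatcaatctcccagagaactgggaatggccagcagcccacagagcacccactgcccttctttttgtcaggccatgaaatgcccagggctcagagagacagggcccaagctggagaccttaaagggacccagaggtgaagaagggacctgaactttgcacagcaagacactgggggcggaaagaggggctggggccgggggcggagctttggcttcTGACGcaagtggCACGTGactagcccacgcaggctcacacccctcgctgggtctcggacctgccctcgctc
Bex2: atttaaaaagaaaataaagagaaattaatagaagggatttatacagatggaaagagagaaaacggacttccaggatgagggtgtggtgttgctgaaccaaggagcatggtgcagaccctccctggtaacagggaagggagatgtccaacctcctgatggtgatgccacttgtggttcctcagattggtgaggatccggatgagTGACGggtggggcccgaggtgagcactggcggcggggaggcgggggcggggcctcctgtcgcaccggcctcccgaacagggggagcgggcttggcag
Bex3: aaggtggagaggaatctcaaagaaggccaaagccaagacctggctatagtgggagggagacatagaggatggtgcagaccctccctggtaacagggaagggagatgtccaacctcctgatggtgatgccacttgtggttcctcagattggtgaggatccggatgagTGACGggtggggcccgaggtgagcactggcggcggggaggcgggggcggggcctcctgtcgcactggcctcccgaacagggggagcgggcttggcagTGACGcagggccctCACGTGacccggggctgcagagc

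The windows of Bex1 (chrX:136215464-136215763, minus strand) and Bex4 (chrX:136138746-136139045, plus strand) were identical at 287 of 290 aligned bases. Those of Bex2 (chrX:136068187-136068486, minus strand) and Bex3 (chrX:136270003-136270302, plus strand) were identical at 197 of 199 aligned bases. Each window has 300 bases, so the match of Bex2 and Bex3 covered only part of it. Among the windows of 27025 genes, no other gene shared a run of 50 bases with any of these 4. Outside these pairs, local alignments between members covered at most 166 bases, with 60.2% identity for the longest, between Bex2 and Tceal8. The windows of Bex1, Bex4, Tceal8 and Bex3 each held TGACG followed after 7 or 9 bases by CACGTG, close to the annotated first base. The stretch is shown because genes with unlike promoters shared it at nearly the same place.

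Bex1 and Bex4: TGACGcaagtggCACGTG
Tceal8: TGACGcgatcctCACGTG
Bex3: TGACGcagggccctCACGTG

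In Bex1 the CACGTG began 3 bases before the annotated first base and in Bex4 9 bases before it, while in Tceal8 and Bex3 it began at base 18 and base 28 of the gene. The window of Bex2 ended before it: in the GENCODE transcript of Bex2 the TGACG began at base 51 and the CACGTG at base 65, 9 bases apart as in Bex3. The window of Tceal9 held TGACG at the matching place but no CACGTG, and that of Bex6 held neither. Of the other Tceal genes, Tceal1, Tceal3, Tceal5 and Tceal6 also had the pair in a window. The 2 motifs were chosen after the windows were read. Among all 32851 windows, 20.8% held TGACG on either strand, 7.15% held CACGTG, which reads alike on both strands, and 131 windows (0.399%) held the pair 5 to 30 bases apart on either strand. Of 114 genes outside both families with the pair, 75 were tested for a difference between genotypes, and 56% of them were higher in β-catGOF; Mll1-/- cells (median log2 difference 0.04), against 53.1% of the 9860 tested genes with a window (median 0.03). The groups did not overlap, with β-catGOF; Mll1-/- higher, for 3 of the 75 (4%) and for 3.89% of the 9860.

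The libraries held 14468751 to 16847793 counts on genes, and 15983 to 17266 genes had at least 10 counts. Levels are in CPM (reads of a gene relative to the TMM-normalised library size), and a floor of 3 counts lay at 0.162 to 0.241 CPM. Floors cover counting error only, and noise from amplification is not separated out, since the Smart-seq2 libraries carry no molecular identifiers. In the text, values after ± are SDs over the mice of a genotype, and SEs are from the edgeR fit. Stem cell markers (10 of 10) and epithelial markers (8 of 8) passed the filter on low counts. By DESeq2, which called 406 of the 16445 genes tested, 2 of the 10 stem cell markers had an adjusted p under 0.1. None did by edgeR or limma-voom. Of the stem cell markers 7 were lower and 3 higher in β-catGOF; Mll1-/- cells, with a median log2 difference of -0.10. Their summed level was 10878 to 17585 CPM against 23123 to 27592 CPM, most of it from Olfm4 (12160 ± 2796 and 20741 ± 1705 CPM; log2 difference -0.77, adjusted p = 0.200 by edgeR), whereas Axin2, a Wnt target, was at 226 ± 34.2 and 167 ± 14.5 CPM (0.44, adjusted p = 0.384 by edgeR). Kmt2a was found at 63.5 ± 10.7 CPM in β-catGOF; Mll1-/- and 53.8 ± 7.45 CPM in β-catGOF; Mll1+/- libraries (SD, n = 4; log2 difference 0.24, SE 0.17, adjusted p = 0.710 by edgeR), so the count of the whole gene, which also covers exons outside the floxed part, did not check the deletion. The library of J_7135 stood apart: it held 208 CPM of Xist, the RNA of the inactive X chromosome, together with 165 CPM of 4 Y-linked transcripts, whereas the other 7 libraries held either Xist (404 to 759 CPM) or Y-linked transcripts (295 to 322 CPM summed) and less than 3 CPM of the other kind. Sex was not labelled, and values of the members without the library of J_7135 are given beside the main ones.

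Per kb of exon, Tceal9 was the most abundant of the 6 X-linked members and Bex2 the least, and the order of their means was the same in both genotypes. In β-catGOF; Mll1+/- cells, Tceal9 reached 422 ± 37.4 CPM per kb (SD, n = 4), rank 175 of 35767 detected genes. Bex3 followed with 78.3 ± 4.65 CPM per kb at rank 887, and Bex1 with 24.5 ± 4.00 CPM per kb at rank 2334. Tceal8 lay at 8.73 ± 4.12, Bex4 at 2.94 ± 1.32 and Bex2 at 1.82 ± 0.528 CPM per kb. Of the neighbours in this order, Tceal9 lay above Bex3, Bex3 above Bex1 and Bex1 above Tceal8 in 8 of 8 libraries, whereas Tceal8 lay above Bex4 and Bex4 above Bex2 in 7 of 8. Between the genes paired by their windows, Bex3 exceeded Bex2 43.0-fold per kb in β-catGOF; Mll1+/- and 22.4-fold in β-catGOF; Mll1-/- cells. Bex1 exceeded Bex4 8.33-fold and 4.57-fold. The part of the promoter windows in these levels was not tested. In β-catGOF; Mll1-/- cells the mean levels were 553 ± 120 (Tceal9), 117 ± 11.5 (Bex3), 75.2 ± 17.7 (Bex1), 22.1 ± 6.29 (Tceal8), 16.4 ± 8.95 (Bex4) and 5.22 ± 3.39 (Bex2) CPM per kb. Levels of the Bex genes are set by the reads that could be placed, since only reads mapped uniquely were counted. Of the 31-base words, 59.9% of Bex4, 40% of Bex1, 35.5% of Bex2 and 16.4% of Bex3 also occur in other annotated transcripts. These are mostly transcripts of other Bex genes, Tceal7 or Gm12245. For Tceal8 the share was 2.05% and for Tceal9 none of the words were shared. Words were compared on both strands. The 14.2% of Bex1 words shared with Tceal7 can therefore come from exons that overlap at the same place, where reads still map uniquely.

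**Figure D1:**
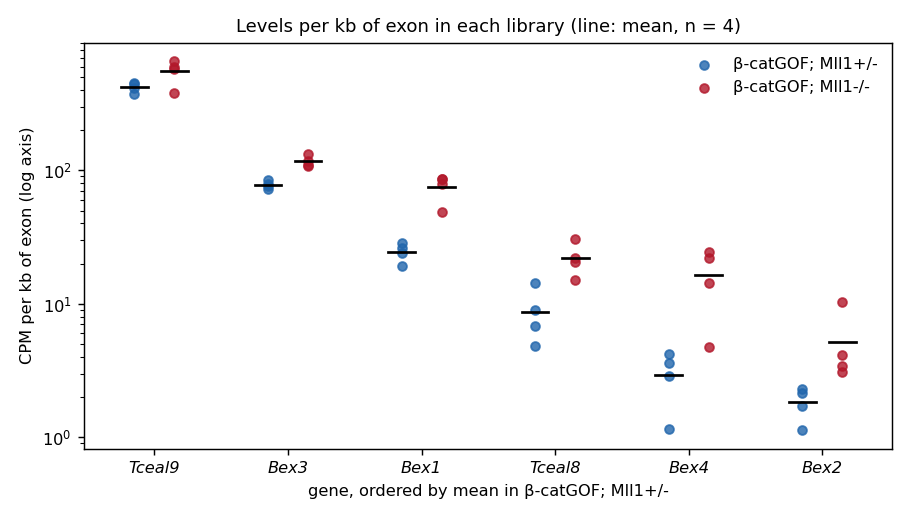
CPM per kb of exon (log axis) of the 6 X-linked members in the 4 β-catGOF; Mll1+/- (blue) and 4 β-catGOF; Mll1-/- (red) libraries, with points for libraries and lines for means. Means run from 422 (Tceal9) to 1.82 (Bex2) CPM per kb in β-catGOF; Mll1+/- cells, and the order of the genes was the same in both genotypes.

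Bex1, an adaptor of the p75 neurotrophin receptor, was found at 93.9, 103, 58.2 and 101 CPM in the β-catGOF; Mll1-/- mice J_7075, J_7096, J_7135 and J_7136. In the β-catGOF; Mll1+/- mice J_7079, J_7100, J_7134 and J_7139 it was found at 34.1, 22.9, 30.9 and 28.5 CPM. The groups did not overlap, and J_7135 had the lowest level among the β-catGOF; Mll1-/- mice. The means were 89.2 ± 21.0 and 29.1 ± 4.75 CPM (SD, n = 4), a log2 difference of 1.62 (SE 0.22) or 3.06-fold, and 1.77 without J_7135. The exons of Bex1 overlap those of Tceal7 on the opposite strand over 223 of 1186 bases (18.8%). Counting did not use the strand, and reads on this stretch were left out.

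Bex4, which is known to associate with microtubules, differed most. It was found at 11.9, 20.6, 4.00 and 18.6 CPM in J_7075, J_7096, J_7135 and J_7136, and at 2.99, 3.52, 0.962 and 2.39 CPM in J_7079, J_7100, J_7134 and J_7139. J_7135 again had the lowest level of its genotype and lay just above the highest β-catGOF; Mll1+/- mouse. The means were 13.8 ± 7.49 and 2.46 ± 1.10 CPM, a log2 difference of 2.47 (SE 0.56) or 5.55-fold, and 2.78 without J_7135. The counts were low, from 12 reads in J_7134 to 355 reads in J_7096.

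Bex2, which has been linked to the control of apoptosis in tumour cells, was the least abundant X-linked member, with 17 to 141 reads per library. It was found at 3.72, 2.78, 3.08 and 9.26 CPM in J_7075, J_7096, J_7135 and J_7136, and at 1.02, 1.55, 2.09 and 1.94 CPM in J_7079, J_7100, J_7134 and J_7139. The groups did not overlap, and J_7136 lay far above the other 3 β-catGOF; Mll1-/- mice. The means were 4.71 ± 3.06 and 1.65 ± 0.477 CPM, a log2 difference of 1.51 (SE 0.49) or 2.85-fold. Without J_7136 the difference was 0.96, and without J_7135 it was 1.67.

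Bex3, the p75-binding mediator of cell death known as NADE, varied least. It was found at 115, 106, 129 and 105 CPM in J_7075, J_7096, J_7135 and J_7136, and at 77.2, 74.9, 71.0 and 81.8 CPM in J_7079, J_7100, J_7134 and J_7139. Here J_7135 had the highest level, and the groups did not overlap. The means were 114 ± 11.1 and 76.2 ± 4.52 CPM, a log2 difference of 0.58 (SE 0.12) or 1.49-fold, and 0.51 without J_7135.

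Tceal8 was found at 38.8, 56.9, 52.6 and 77.8 CPM in J_7075, J_7096, J_7135 and J_7136, and at 12.3, 17.4, 22.9 and 36.8 CPM in J_7079, J_7100, J_7134 and J_7139. The groups did not overlap, but the lowest β-catGOF; Mll1-/- mouse (J_7075) and the highest β-catGOF; Mll1+/- mouse (J_7139) lay close together. The means were 56.5 ± 16.1 and 22.4 ± 10.5 CPM, a log2 difference of 1.34 (SE 0.34) or 2.53-fold, and 1.37 without J_7135. Tceal9 was found at 599, 683, 394 and 618 CPM in J_7075, J_7096, J_7135 and J_7136, and at 471, 462, 385 and 432 CPM in J_7079, J_7100, J_7134 and J_7139. It was the only tested member whose groups overlapped, and J_7135 was the library that overlapped. The means were 574 ± 125 and 437 ± 38.7 CPM, a log2 difference of 0.39 (SE 0.16) or 1.31-fold, and 0.53 without J_7135. Bex6 had 9 reads in J_7135 (0.487 CPM) and 0 in the other 7 libraries, where 0 counts allow up to 0.174 to 0.241 CPM, and it did not pass the filter on low counts.

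**Figure D2:**
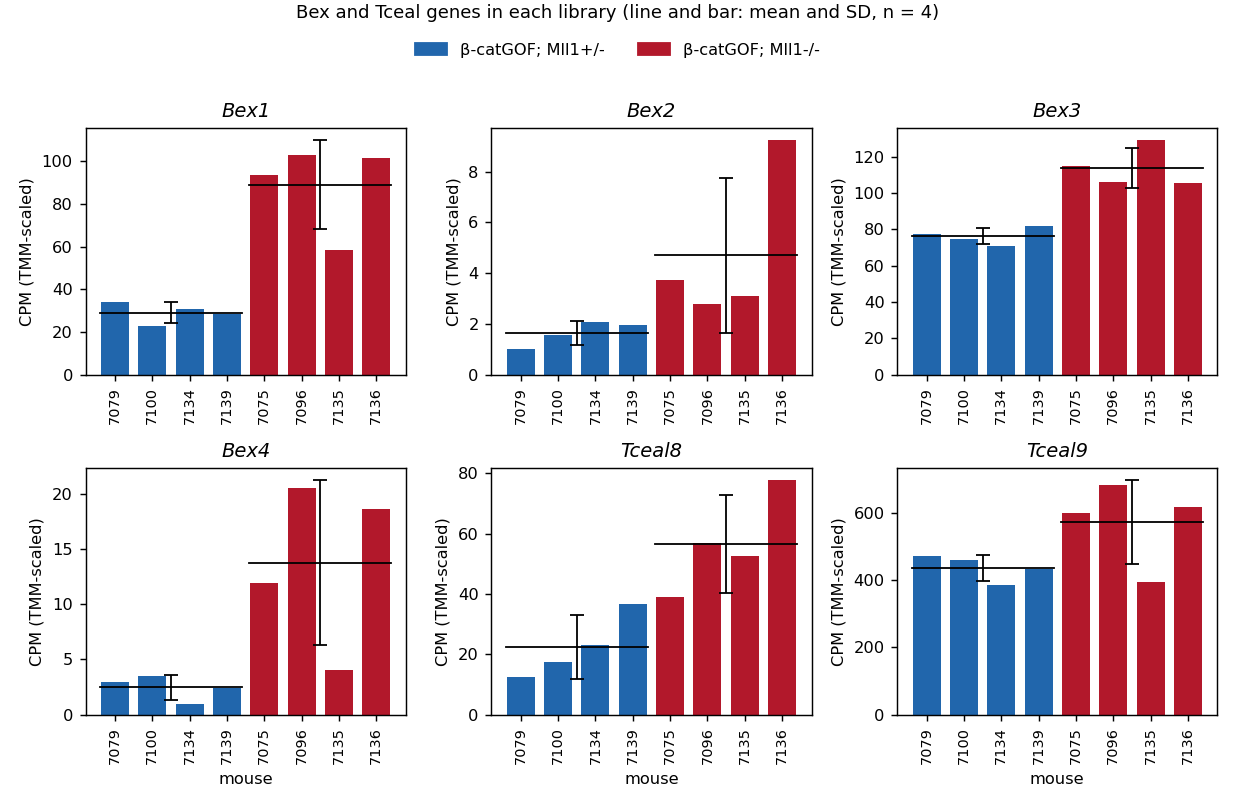
CPM of each X-linked member (vertical axes start at 0) in the 4 β-catGOF; Mll1+/- (blue bars) and 4 β-catGOF; Mll1-/- (red bars) mice, with a line for the mean and an error bar for the SD (n = 4). Bex1 reached 58.2 to 103 CPM in β-catGOF; Mll1-/- mice and 22.9 to 34.1 CPM in β-catGOF; Mll1+/- mice, and Tceal9 overlapped between genotypes.

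All 6 members tested were higher in β-catGOF; Mll1-/- cells, where 50.8% of the 16445 genes tested were higher, and their median log2 difference was 1.42 beside 0.01 over all genes. In 5 of the 6 every β-catGOF; Mll1-/- library lay above every β-catGOF; Mll1+/- library, which held for 3.34% of all genes. An adjusted p under 0.1 by edgeR was reached by 1 member, Bex1 (which kept it under 7 of 17 alternatives and lost it when any library but J_7135 was left out), beside 0.0486% of all genes with β-catGOF; Mll1-/- higher, and by 4 members with DESeq2, beside 1.48%. Data were simulated with the dispersions of this edgeR fit, a setting that follows edgeR's own model. In them, 7.29% of calls were false by edgeR, 7.69% by limma-voom and 38.3% by DESeq2. Of simulated log2 differences of 1, edgeR recovered 23% and DESeq2 43%, and of those of 2, 66% and 86%, so edgeR can miss differences of these sizes. The counts of members are a description and no test, since the genes were chosen with this contrast known, and Bex1 and Bex2 for being higher. Tceal1, the only other tested gene of the families looked up, is not a member and was lower (log2 difference -0.63). In bulk samples, a larger share of cells with a transcript and more transcript per cell cannot be told apart. On the X chromosome, 601 genes were tested, of which 40.3% were higher in β-catGOF; Mll1-/- cells, and for 2.66% the groups did not overlap in that direction. Without the members the median of the X-linked genes was -0.08.

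The differences were also computed within the sets of animal numbers. The mice numbered J_7075 to J_7100 and those numbered J_7134 to J_7139 each included 2 mice of each genotype, and the labels do not say whether the numbers mark a litter or a batch. Within the lower and the higher set, the difference of the mean log2(CPM + 0.5) was 1.80 and 1.36 for Bex1, 1.08 and 1.24 for Bex2, 0.53 and 0.61 for Bex3, 2.11 and 2.17 for Bex4, 1.65 and 1.12 for Tceal8, and 0.46 and 0.28 for Tceal9. All 6 members were higher in β-catGOF; Mll1-/- cells in both sets. For the 5 whose groups did not overlap, this direction was fixed in advance, so only the sizes are informative.

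Because these members are X-linked, their values were also compared among libraries with the same kind of sex-linked transcripts. Xist was found without Y-linked transcripts in 1 β-catGOF; Mll1-/- library (J_7136) and 3 β-catGOF; Mll1+/- libraries, and Y-linked transcripts without Xist in 2 β-catGOF; Mll1-/- libraries (J_7075 and J_7096) and 1 β-catGOF; Mll1+/- library (J_7134). In the former, the log2 differences were 1.83 (Bex1), 2.31 (Bex2), 0.43 (Bex3), 2.47 (Bex4), 1.93 (Tceal8) and 0.44 (Tceal9). In the latter, they were 1.66, 0.52, 0.63, 3.47, 1.02 and 0.73 in the same order. Within each kind every β-catGOF; Mll1-/- library lay above every β-catGOF; Mll1+/- library for all 6 members, with 1 library on one side of each comparison. For 5 of the 6 this had to hold, since their groups did not overlap in the first place. J_7135, the only library that overlapped for Tceal9, was in neither kind. This order is therefore no check on sex. With the log ratio of Xist to Y-linked transcripts as a covariate, the fitted differences were 1.59, 1.54, 0.60, 2.82, 1.40 and 0.42.

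Within a genotype some members followed the same order of mice and others did not. In β-catGOF; Mll1-/- cells, Bex1, Bex4 and Tceal9 were all highest in J_7096 and lowest in J_7135, where Bex3 was highest, and Bex2 and Tceal8 were highest in J_7136. In β-catGOF; Mll1+/- cells, Bex3, Bex4 and Tceal9 were lowest in J_7134, whereas Bex2 and Tceal8 were lowest in J_7079. The coefficient of variation between the mice of a genotype was 9.80% and 5.94% for Bex3 in β-catGOF; Mll1-/- and β-catGOF; Mll1+/- cells, 54.4% and 44.7% for Bex4, and 64.9% and 29.0% for Bex2. For Bex1 it was 23.5% and 16.3%, for Tceal8 28.5% and 47.1%, and for Tceal9 21.8% and 8.86%.

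**Figure D3:**
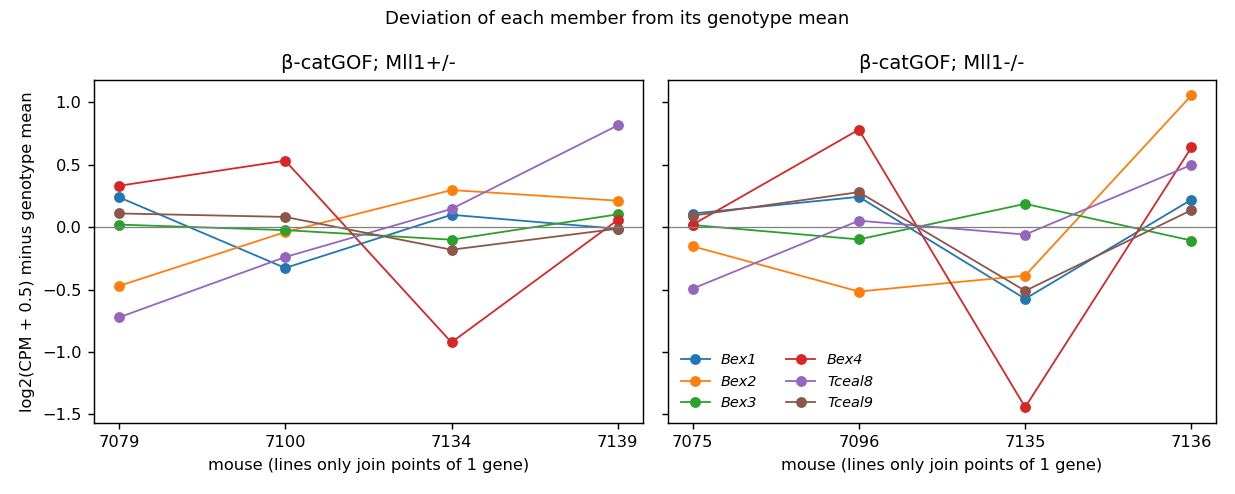
Deviation of log2(CPM + 0.5) of each member from its mean over the 4 mice of a genotype, for β-catGOF; Mll1+/- (left) and β-catGOF; Mll1-/- (right) mice, with lines that only join the points of a gene. Bex4 and Tceal9 were lowest in J_7134 and in J_7135, and Bex3 moved least.

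Of the 6 further family members looked up, only Tceal1 passed the filter on low counts, and it did not follow the members. It was found at 5.70 ± 1.78 CPM in β-catGOF; Mll1-/- and 8.85 ± 3.15 CPM in β-catGOF; Mll1+/- cells, a log2 difference of -0.63 (SE 0.36, adjusted p = 0.649 by edgeR), and its groups overlapped. Tceal5, which lies between Tceal8 and Bex1, had 7 reads in J_7136 and 0 in the other libraries. Tceal3 and Tceal7 had at most 2 reads in a library, Tceal6 had 0 in all 8, and Bex5 is not in the count table. Hence 4 of the 5 other Tceal genes that were looked up were at or near the floor in both genotypes. Of these, Tceal3, Tceal5 and Tceal6 had TGACG followed by CACGTG in a promoter window, as Bex1, Bex3, Bex4 and Tceal8 did. In the window of Tceal7 the CACGTG came before the TGACG.

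Most genes around the cluster differed less than the members. Within 2 Mb of the start of Bex1, 94 genes had a count and 32 were tested, of which 26 were not members. Of these 26, 14 were higher in β-catGOF; Mll1-/- cells, their median log2 difference was 0.03, and none had an adjusted p under 0.1 by edgeR, DESeq2 or limma-voom, beside 0.0851% of all genes by edgeR. An unadjusted p under 0.05 was found for 1 of them by edgeR, beside 9.15% of all genes, for 3 by DESeq2 and for 2 by limma-voom. Bhlhb9, an Armcx-related gene, was found at 35.2 ± 9.53 and 22.2 ± 7.41 CPM (log2 difference 0.66, SE 0.30, adjusted p = 0.561 by edgeR), without overlap between the groups. In the list of Armcx, Gprasp and Arxes neighbours, 9 of 16 tested genes were higher, with a median log2 difference of 0.08.

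**Figure D4:**
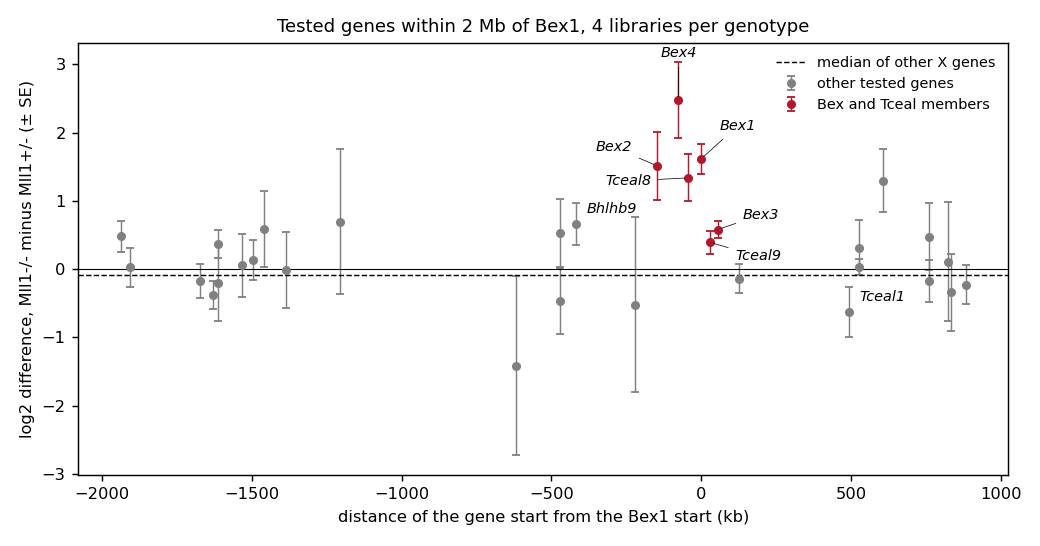
Log2 difference, β-catGOF; Mll1-/- minus β-catGOF; Mll1+/- (± SE, 4 libraries per genotype), of the 32 tested genes within 2 Mb of Bex1, against the distance of the gene start from the Bex1 start in kb. The 6 members (red) lay between 0.39 and 2.47, and the other 26 genes (grey) had a median of 0.03; the dashed line is the median of the other X-linked genes, -0.08.

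The genes of TFIIS itself, after which Tceal genes are named, were all expressed. Tcea1 was found at 43.8 ± 1.39 and 45.5 ± 3.02 CPM (log2 difference -0.06, SE 0.13) and Tcea3 at 29.5 ± 13.2 and 25.2 ± 8.63 CPM (0.23, SE 0.39). Tcea2 was found at 9.20, 4.40, 4.22 and 6.24 CPM in J_7075, J_7096, J_7135 and J_7136, and at 1.80, 1.62, 2.09 and 2.00 CPM in J_7079, J_7100, J_7134 and J_7139. Its groups did not overlap, and its log2 difference was 1.68 (SE 0.36, adjusted p = 0.200 by edgeR and 0.00597 by DESeq2). The receptor that Bex adaptors bind in neurons was at the floor: Ngfr, which encodes the p75 receptor, had at most 3 reads in every library, and Ntf3, a neurotrophin, had 0. Of 12 neurotrophin and p75 receptor genes 5 were tested, 3 were higher in β-catGOF; Mll1-/- cells, the median was 0.09, and none passed an adjusted p of 0.1 by edgeR, DESeq2 or limma-voom (1 with an unadjusted p under 0.05 by each). Maged1, an X-linked p75-binding protein, was found at 82.1 ± 11.2 and 61.3 ± 6.89 CPM (log2 difference 0.42, SE 0.15, adjusted p = 0.460 by edgeR), without overlap between the groups. Ntrk2, the receptor of BDNF, had 1 to 21 reads per library and its groups overlapped (log2 difference 1.01, SE 0.69, adjusted p = 0.710 by edgeR, and 0.63 without J_7139 or 1.72 without J_7134). Sort1 (sortilin) had a log2 difference of 0.09 and Ywhae, a 14-3-3 protein that binds Bex3, of -0.05. Among 4 genes that escape X inactivation, Kdm6a (log2 difference -0.35), Eif2s3x (-0.60) and Ddx3x (-0.16) were lower and Kdm5c (0.23) higher, and none passed an adjusted p of 0.1 by edgeR, DESeq2 or limma-voom (1, Eif2s3x, with an unadjusted p under 0.05 by edgeR).

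Bex genes are best known from endocrine cells and neurons, so lists of markers of these and other cell types were looked up beside the members. Of 30 enteroendocrine markers 13 were tested, 11 of these were lower and 2 higher in β-catGOF; Mll1-/- cells, and their summed level was 34.2 to 68.4 CPM against 56.2 to 124 CPM. The median log2 difference was -1.36, and it moved to 0.56 under a stricter filter of 10 counts in each of the 8 libraries and to -2.38 without a filter. The exception that passed the test was Cplx2, complexin 2, a regulator of vesicle release (22.9 ± 6.18 and 7.24 ± 0.678 CPM, log2 difference 1.66, SE 0.25, adjusted p = 0.0973 by edgeR), a call that held under 6 of 17 alternatives with adjusted p-values up to 0.330. It was lost when any library but J_7135 was left out. Of 12 enteric neuron and glia markers 1 was tested, and their summed level was 5.25 to 8.98 CPM against 2.49 to 10.1 CPM. Of 10 mesenchymal markers only Vim was tested, and it was found at 44.3 to 116 CPM against 0.194 to 4.89 CPM (log2 difference 4.48, SE 0.70, adjusted p = 0.108 by edgeR), while all 10 summed to 45.2 to 118 CPM against 2.26 to 6.42 CPM. Goblet markers (12 of 12 tested, median 1.14) summed to 755 to 1334 CPM against 634 to 849 CPM. By edgeR, 7 were higher and 1 lower with an unadjusted p under 0.05, which 9.15% of all genes reached in either direction. The Paneth list (10 of 10 tested) had a median of -0.87, the stem cell list -0.10 and the epithelial list 0.35. By DESeq2, Vim and 7 goblet, 5 Paneth, 2 stem cell, 2 epithelial and 2 enteroendocrine markers reached an adjusted p under 0.1. That tool called 406 of the 16445 genes tested. By edgeR only Cplx2 reached it in these lists, and by limma-voom none. Tuft (2 of 10 tested), immune (3 of 10) and endothelial (2 of 6) markers held no gene with an unadjusted p under 0.05 by edgeR, DESeq2 or limma-voom. The part of these cell types in the values of the members was not tested.

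Over the 8 libraries, the genes whose log2(CPM + 0.5) followed Bex1 most closely, among 10859 tested genes with a mean of at least 5 CPM, were Cplx2 (Pearson's r 0.981, Spearman's rho 0.929), Gm29797 (0.980 and 0.903), 5330417C22Rik (0.978 and 0.929), Lgals3 (0.972 and 0.881) and Camsap1 (0.955 and 0.881). These values are descriptions over 8 libraries of 2 genotypes, which share the difference between genotypes. Gm29797 was found at 94.1, 82.0, 22.0 and 64.2 CPM in J_7075, J_7096, J_7135 and J_7136, and at 1.50, 0, 0 and 0 CPM in J_7079, J_7100, J_7134 and J_7139. Like Bex1, it was lowest in J_7135 among the β-catGOF; Mll1-/- mice. It lies at chr2:181657034-181659467, close to Tcea2 at chr2:181680310-181688071, and Sox18 and a small nuclear RNA gene are annotated between them. Lgals3, which encodes galectin 3, was found at 41.6 ± 4.83 and 15.5 ± 2.50 CPM (log2 difference 1.43, SE 0.19, adjusted p = 0.0918 by edgeR), a call that held under 8 of 17 alternatives with adjusted p-values up to 0.289, and it too was lost without any library but J_7135. For Bex2 the closest were Ikbip (r 0.953, rho 0.929), Lig1 (0.951 and 0.905), a DNA ligase, Atf4 (0.951 and 0.905), a transcription factor, AC154855.1 (0.947 and 0.929) and Pcnt (0.942 and 0.881), which encodes the centrosomal protein pericentrin. Like Bex2, these 5 genes were highest in J_7136. None of the genes named for Bex1 was among those named for Bex2. Ranked by Spearman's rho instead, 0 of the 5 genes stayed among the closest for either gene, and with a pseudocount of 1 CPM 5 and 4 of them stayed.

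**Figure D5:**
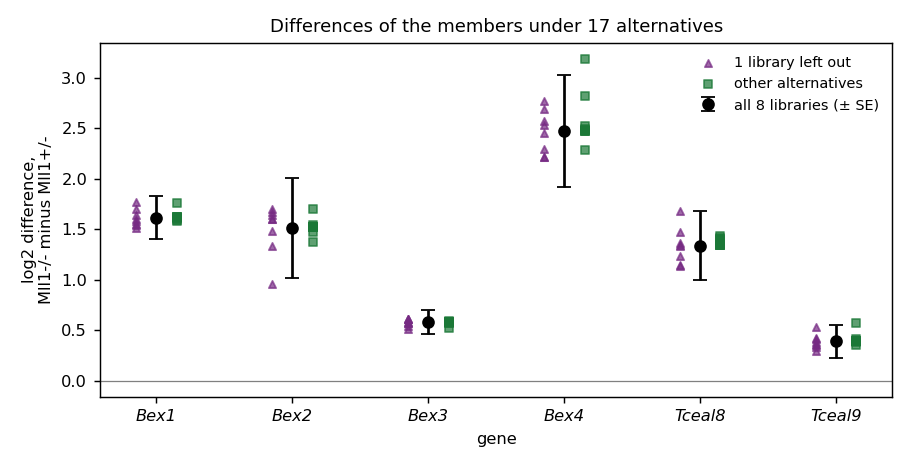
Log2 difference, β-catGOF; Mll1-/- minus β-catGOF; Mll1+/-, of the 6 members with all 8 libraries (black, ± SE), with 1 library left out (triangles) and under the other alternatives (squares). All 102 alternative values, which are refits of the same libraries, were above 0, and they ranged from 0.30 for Tceal9 to 3.19 for Bex4.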

How the data were processed

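The authors sorted Lgr5-GFP+ cells of 8 mice, made Smart-seq2 libraries, aligned the reads to mm10 with GSNAP and counted uniquely mapped reads on Ensembl 92 genes with featureCounts 1.6.3 without strand. The authors deposited raw counts for 53801 genes and 92 spike-ins, and a normalised signal table for 25485 genes, in which counts are divided by 1 size factor per library (0.811 to 1.17). The signal table was used to find the members and the counts for every fit. Genes passing filterByExpr (10 counts, 15 in total) were scaled with TMM and fitted with edgeR 4.0.16 (R 4.3.3; robust quasi-likelihood, two-sided, genotype only, Benjamini-Hochberg over 16445 genes, threshold 0.1), which was tested on simulated data beside DESeq2 and limma-voom. CPM are TMM-scaled, and log2 values of single libraries use 0.5 CPM as pseudocount. The mouse is the replicate. Alternatives were other scalings, filters and tools (DESeq2 1.42.0, limma 3.58.1), a block, a covariate and each library left out. Motifs and 31-base words were searched in RefSeq windows and GENCODE M21 transcripts with Biopython 1.88.

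The members and lists were chosen with earlier results of these data known. Named were all members, the other family, TFIIS, sex-linked and escape genes, Kmt2a, from other lists the called genes or up to 4 with the smallest p, and the 5 genes most like Bex1 and like Bex2 with a mean of at least 5 CPM. Marker lists are mostly given as counts. Some genes under this rule are not reported here.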

Additional observations from a re-analysis of the deposited data

Results flagged for a closer look

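Among the genes named by rule, 114 groups of 4 libraries were screened with Dixon's ratio, and 7 held a library beyond its 95% limit, where chance gives about 1 in 20. Bex2 in β-catGOF; Mll1-/- cells was highest in J_7136 at 9.26 CPM, with the other 3 mice at 2.78 to 3.72 CPM. AC154855.1, named for its likeness to Bex2, was highest in the same library at 21.9 CPM, with the others at 11.9 to 12.4 CPM. Kdm6a, which escapes X inactivation, was lowest among β-catGOF; Mll1+/- libraries in J_7134 at 25.6 CPM, with the others at 71.1 to 77.7 CPM, and this is the β-catGOF; Mll1+/- library without Xist. Bhlhb9 was lowest in J_7079 at 11.2 CPM, with the others at 24.7 to 27.4 CPM. Gm29797 was at 1.50 CPM in J_7079 and at 0 in the other β-catGOF; Mll1+/- libraries. Kmt2a was highest in J_7100 at 64.9 CPM, with the others at 48.9 to 51.2 CPM. Muc2, the goblet cell mucin, was highest in J_7135 at 81.8 CPM, with the other β-catGOF; Mll1-/- libraries at 25.4 to 31.8 CPM.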

How the results depend on the processing

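The differences of the 6 members were above 0 in all 102 values over 17 alternatives and moved by less than the spread between replicates. These values are refits of the same libraries. For the 5 members whose groups did not overlap, leaving out 1 library could hardly turn the sign. Bex1 ranged from 1.51 to 1.77, Bex2 from 0.96 to 1.70, Bex3 from 0.51 to 0.62, Bex4 from 2.21 to 3.19, Tceal8 from 1.13 to 1.68 and Tceal9 from 0.30 to 0.58. The count of genes called among all genes depended on the processing. It was 14 (8 higher, 6 lower), 8 with upper-quartile scaling (3 higher, 5 lower), 47 without a filter, 34 with at least 10 counts in every library, 406 by DESeq2 (244 higher, 162 lower), 6 by limma-voom (1 higher, 5 lower), and 0 with the animal-number set as a block (1642 with an unadjusted p under 0.05) or with the Xist covariate (1610). With 1 library left out it ranged from 0 to 45, with 45 without J_7135 (22 higher, 23 lower), 2 without J_7075 and 0 without any of the other 6 (1189 to 1847 with an unadjusted p under 0.05). Without J_7135 and with the Xist covariate, an alternative chosen after seeing the data, it was 35. The cause was not tested. The median of the enteroendocrine list moved from -1.36 to -2.38 without a filter, to 0.56 with at least 10 counts in every library and to -0.25 without J_7135 with the covariate, where other sets of genes are tested. With 1 library left out, the median of the Paneth list ranged from -1.08 to -0.50. No paired analysis was possible because the replicate numbers only follow the order of the samples. Bex2 and Bex4 rest on 12 to 355 reads per library, which limits their precision.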
